A study of Mus musculus with 15 samples.

Results

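The mRNA described here encode killer lectin-like receptors, cell surface receptors with a C-type lectin fold that natural killer (NK) cells and activated CD8+ T cells use to sense stress-induced and MHC class I related molecules. The members are *Klrd1* (CD94), *Klrk1* (NKG2D), *Klrc1* (NKG2A) and *Klrg1*, named by gene symbol with earlier results of these data known. Of these 4 genes, 3 have a row among the 11262 mRNA measured in naïve and TCR activated CD8+ T cells, and all 4 have a row among the 11211 mRNA measured in cytotoxic T lymphocytes (CTL). *Klrg1* was not analysed here in the naïve and activated cells.

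CD94 has little signalling capacity of its own and forms disulphide-linked heterodimers with NKG2 proteins. Paired with NKG2A, which carries inhibitory tyrosine motifs, it binds the non-classical MHC class I molecule Qa-1, encoded by *H2-T23* in mice, and restrains cytotoxicity. NKG2D is an activating homodimer that binds stress-induced ligands such as MULT1, RAE-1 and H60, and it signals through the adaptor DAP10, encoded by *Hcst*, which can recruit PI3K. KLRG1 is an inhibitory receptor for cadherins and is widely used to mark short-lived effector CD8+ T cells.

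The study asked how PI3K p110δ controls transcription in CD8+ T cells, and the cells were from P14 mice, whose transgenic TCR recognises the LCMV peptide gp33–41. Naïve cells were sorted ex vivo as live TCRβ+ CD8+ cells with low CD44, and the activated cells (TCR) were kept for 24 h in IL-2 (20 ng/ml), IL-12 (2 ng/ml), gp33–41 peptide (100 ng/ml) and the vehicle DMSO, then sorted as DAPI- CD8+. The third group (TCR + PI3Kdi) was treated in the same way, with 10 µM of the p110δ inhibitor IC87114 in place of vehicle alone. The mice of these 3 groups were females of 9 to 13 weeks, and lymph nodes of 3 mice were pooled for each replicate and split between the conditions. CTL of the same transgenic strain were activated for 48 h and expanded in 20 ng/ml IL-2, then washed on day 6 and kept for 24 h with IL-2 (CTL IL-2) or without it (CTL no IL-2). All 15 libraries, 3 biological replicates in each of the 5 groups, were run on the same sequencing lane. The TCR and TCR + PI3Kdi cultures both held IL-2 and IL-12, so neither cytokine's part in these 24 h can be told apart from that of the peptide. Values are FPKM, fragments counted per length of exon and per mapped fragments of the library, so levels of different mRNA within a library can be compared per length. They are relative to all mapped fragments of a library, so a lower FPKM need not mean less of an mRNA per cell.

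All 5 marker genes listed for CD8+ T cells, 2 of CD8 (*Cd8a*, *Cd8b1*) and 3 of CD3 (*Cd3d*, *Cd3e* and *Cd3g*), had a row in both tables. Their summed levels were 3189 to 3482 FPKM in naïve cells, 637 to 685 FPKM in TCR cells and 811 to 953 FPKM in TCR + PI3Kdi cells. In CTL they were 971 to 1042 FPKM with IL-2 and 1876 to 2069 FPKM without it. None of the 7 NK cell markers examined had a row in the naïve and activated table, and 3 of 7 (*Klrb1c*, *Tyrobp* and *Fcer1g*) had one in the CTL table. The 2 tables were normalised separately, so values of naïve or activated cells and of CTL are set side by side without a test.

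*Klrd1*, *Klrk1* and *Klrc1* are neighbours in the NK gene complex on chromosome 6 (GRCm38, the build of the deposited alignments, with GENCODE M21 gene limits). *Klrd1* (Entrez 16643) runs from 129591782 to 129598775 on the plus strand. *Klrk1* (Entrez 27007) lies 11.5 kb further on, from 129610323 to 129623864 on the minus strand. *Klrc1* (Entrez 16641) follows after another 42.15 kb, from 129666015 to 129678973 on the minus strand. *Klrg1* (Entrez 50928) is on the same chromosome at 122270596 to 122282882 on the minus strand, 7.31 Mb from *Klrd1*. No exon or intron of these 4 genes overlaps another annotated gene. Of the 75-base windows along *Klrc1* transcripts, 25% also occur in transcripts of *Klrc2* or *Klrc3*, so part of the *Klrc1* level is uncertain where reads could be shared, while the other 3 genes share no such window.

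The stretches just upstream of the *Klrk1* and *Klrc1* start sites are shown because these minus-strand genes both rose on activation and then differed in their response to PI3Kdi. They are RefSeq promoters of GRCm38.p6, printed 5′ to 3′ on the minus strand and ending at the base before the start site, at chr6:129623865-129624114 for *Klrk1* and chr6:129678974-129679223 for *Klrc1*. Capitals mark the RUNX core motif TGTGGT or its reverse complement ACCACA.
Klrk1: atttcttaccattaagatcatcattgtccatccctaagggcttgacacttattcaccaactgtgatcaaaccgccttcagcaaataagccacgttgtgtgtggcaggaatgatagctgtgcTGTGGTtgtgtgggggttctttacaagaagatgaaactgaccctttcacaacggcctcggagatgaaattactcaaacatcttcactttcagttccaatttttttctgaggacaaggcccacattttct
Klrc1: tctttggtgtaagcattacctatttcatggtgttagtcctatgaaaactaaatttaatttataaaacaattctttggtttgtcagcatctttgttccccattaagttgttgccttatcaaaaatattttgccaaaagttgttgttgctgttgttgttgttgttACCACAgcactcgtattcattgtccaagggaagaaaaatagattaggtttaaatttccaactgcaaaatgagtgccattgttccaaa
Both windows held this core, on the plus sense of the gene at position -129 in *Klrk1* and on the opposite strand at position -87 in *Klrc1*, counted from the start site. The core is common, with a match on either strand in 16.8% of 32851 mouse promoter windows of 300 bases. *Klrk1* also had an AP-1 match (TGANTCA) at position 18 after its start site, a motif found in 7.81% of windows, and *Klrc1* had none. Neither window held NFAT (GGAAAA), T-box (AGGTGT), STAT (TTCNNNGAA), FOXO (GTAAACA) or KLF (GGGTGTGG) letters. These are matches of letters and not sites shown to be bound.

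The first comparison asked how antigen receptor activation changed the receptors. *Klrd1* and *Klrk1* moved in opposite directions. *Klrd1* mRNA was at 141.62, 141.05 and 120.3 FPKM in the 3 naïve replicates and at 3.64, 3.8 and 3.38 FPKM in the TCR replicates. Every activated library was far below every naïve library. Groups that did not overlap, by any margin and in either direction, were found for 80.7% of all mRNA in this comparison. The mean fell from 134 ± 12.1 FPKM to 3.61 ± 0.212 FPKM (SD, n = 3), which is 37.2-fold lower. In the limma fit the log2 fold change was -5.18 (SE 0.11, adjusted p = 2.22e-11). In rank, *Klrd1* moved from above 96.25% of measured mRNA in naïve cells to above 27.1% in TCR cells.

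*Klrk1*, the gene next to it, read 0.16, 0.27 and 0.45 FPKM in the naïve libraries and 10.05, 13.01 and 14.89 FPKM after activation. The groups were wide apart, and the naïve values were near the bottom of the table, above only 7.68% of measured mRNA. The mean rose from 0.293 ± 0.146 FPKM to 12.65 ± 2.44 FPKM (SD, n = 3), or 43.1-fold, and by 5.07 on the log2 scale (SE 0.30, limma adjusted p = 2.95e-08). The naïve cells thus held transcripts for CD94 with almost none for NKG2D.

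*Klrc1*, which encodes the inhibitory partner of CD94, had blank cells in all 3 naïve libraries, read as 0. In TCR cells it was at 3.44, 4.01 and 1.45 FPKM, a mean of 2.97 ± 1.34 FPKM (SD, n = 3). Replicate 3 was the lowest of the activated libraries and still above naïve cells. The rise passed the test (limma adjusted p = 1.19e-07), and no fold is given because the mRNA is read as 0 in naïve cells. All 3 measured receptors were therefore called changed at an adjusted p under 0.05 and a fold above 2, against 48.7% of all mRNA tested in this comparison, so a call is common here.

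**Figure D1:**
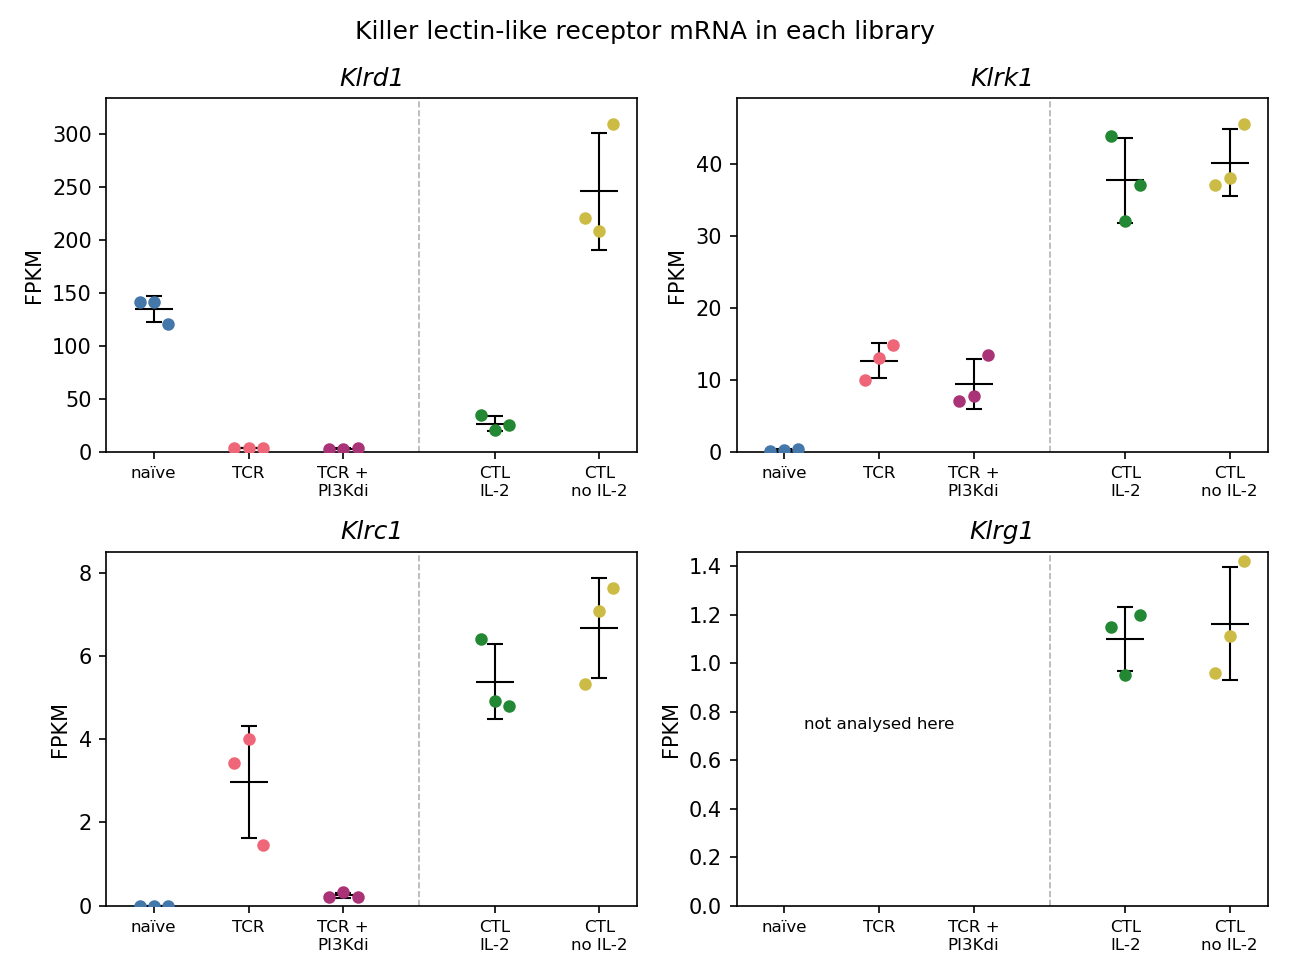
FPKM of each receptor mRNA in every library (points), with the group mean and SD (black bars, n = 3). The y axes are linear, start at 0 and differ between panels, and the dashed line separates the naïve and activated table from the CTL table, which was normalised separately. *Klrd1* was high in naïve cells (120.3 to 141.62 FPKM) and CTL no IL-2 (207.84 to 309.13 FPKM), and *Klrk1* was highest in the CTL groups.

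The second comparison asked how PI3K p110δ inhibition changed the receptors during activation. *Klrc1* was the receptor that responded. With PI3Kdi it was at 0.2, 0.32 and 0.21 FPKM, against 3.44, 4.01 and 1.45 FPKM in TCR cells. The lowest TCR library was above the highest PI3Kdi library, and 36.7% of all mRNA had groups that did not overlap. The mean was 0.243 ± 0.0666 FPKM with PI3Kdi (SD, n = 3), 12.2-fold lower than in TCR cells, and within the 3 same-numbered pairs of libraries it was 17.2, 12.5 and 6.91-fold lower. The log2 fold change was -3.06 (SE 0.34, limma adjusted p = 0.000167), and leaving out each library in turn gave -3.49 to -2.79. It was 1 of 3 receptors called in this comparison, in which 5.14% of all mRNA were called and 2.1% were called lower.

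*Klrk1* was at 7.09, 7.7 and 13.45 FPKM with PI3Kdi. These values overlapped those of TCR cells, although the PI3Kdi library was the lower in all 3 same-numbered pairs. The log2 fold change was -0.46 (SE 0.30, 95% interval -1.12 to 0.20, limma adjusted p = 0.326), which leaves room for a fall of over 2-fold. With the replicate number as a block the adjusted p was 0.0782.

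*Klrd1* was at 2.85, 2.78 and 3.33 FPKM with PI3Kdi, a mean of 2.99 ± 0.299 FPKM (SD, n = 3). All 3 values were just below the lowest TCR value of 3.38 FPKM, and 36.7% of all mRNA had groups that did not overlap in this comparison. The log2 fold change was -0.27 (SE 0.11, 95% interval -0.51 to -0.02), and it did not pass the test after adjustment (limma adjusted p = 0.128). The interval leaves out a 2-fold change.

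Compared with naïve cells, cells activated in PI3Kdi still showed the fall of *Klrd1* and the rise of *Klrk1*. *Klrd1* was 45.0-fold lower than in naïve cells (log2 fold change -5.44, limma adjusted p = 2.56e-11). *Klrk1* was 32.1-fold higher (log2 fold change 4.60, limma adjusted p = 8.32e-08). *Klrc1* was called higher than in naïve cells, where blanks were read as 0 (limma adjusted p = 0.000536). With a pseudocount of 1 FPKM in place of 0.1 that call was lost (adjusted p = 0.19). That made 3 of 3 receptors called, against 45% of all mRNA. This comparison shares its PI3Kdi libraries with the second comparison and its naïve libraries with the first.

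**Figure D2:**
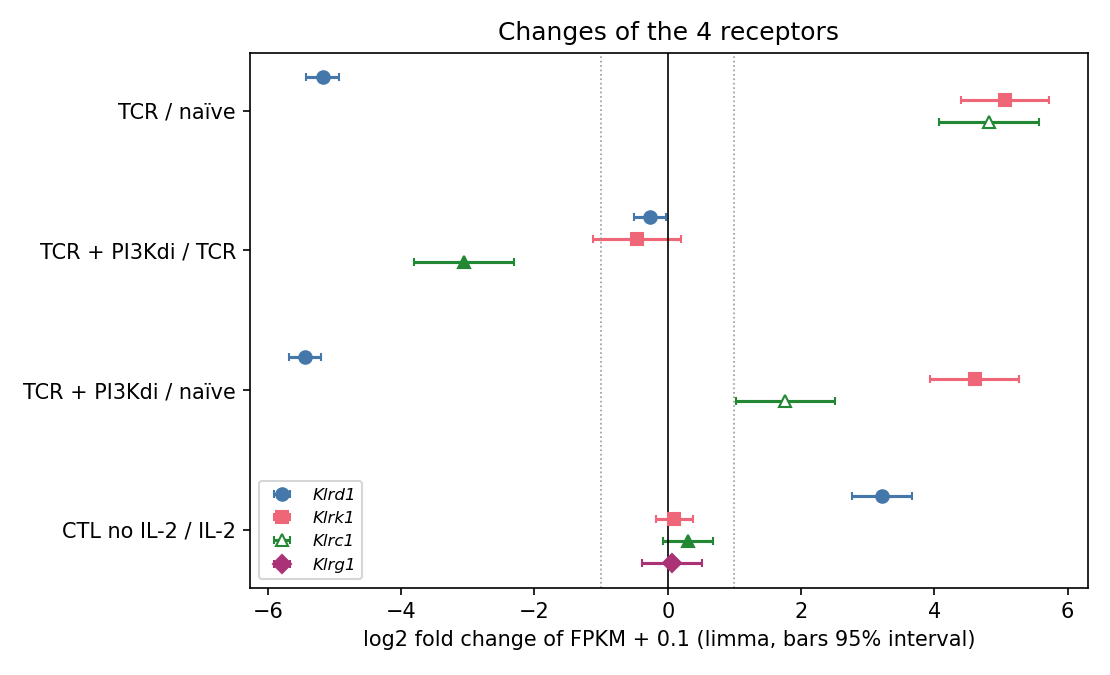
Log2 fold changes of log2(FPKM + 0.1) from limma with 95% intervals, for each comparison (y axis) and receptor (colour and symbol). Open triangles mark *Klrc1* against naïve cells, where blanks are read as 0 and the fitted value depends on the pseudocount, and dotted lines mark 2-fold changes. With PI3Kdi, *Klrc1* was at -3.06 while the intervals of *Klrd1* and *Klrk1* reached -0.02 and 0.20.

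The third comparison asked how withdrawal of IL-2 changed the receptors in CTL. Here *Klrd1* was the receptor that rose. It was at 34.39, 20.08 and 25.11 FPKM in CTL IL-2 and at 220.02, 207.84 and 309.13 FPKM in CTL no IL-2. The groups did not overlap, which held for 76.1% of all mRNA here. Each library without IL-2 was over 6 times its same-numbered partner, with ratios of 6.40, 10.35 and 12.3. The mean rose 9.26-fold, from 26.5 ± 7.26 FPKM to 246 ± 55.3 FPKM (SD, n = 3), and by 3.22 on the log2 scale (SE 0.20, limma adjusted p = 1.01e-06). Without IL-2, *Klrd1* was above 97.8% of the mRNA in the table. It was 1 of 4 receptors called, against 28.2% of all mRNA tested in this comparison.

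*Klrk1* was at 43.91, 32.17 and 37.13 FPKM in CTL IL-2 and at 37.1, 38.04 and 45.58 FPKM in CTL no IL-2. The groups overlapped, and the difference was 0.10 on the log2 scale (95% interval -0.18 to 0.38, limma adjusted p = 0.5). *Klrc1* was at 6.42, 4.93 and 4.8 FPKM with IL-2 and at 5.33, 7.08 and 7.63 FPKM without it. Its groups also overlapped, with a log2 fold change of 0.30 (95% interval -0.08 to 0.68, limma adjusted p = 0.131). Both intervals lie within a 2-fold change in either direction.

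*Klrg1* was low in both groups. It was at 1.15, 0.95 and 1.2 FPKM with IL-2 and at 0.96, 1.11 and 1.42 FPKM without IL-2. The groups overlapped, and the log2 fold change was 0.06 (SE 0.20, 95% interval -0.39 to 0.52, limma adjusted p = 0.786). In both groups *Klrg1* was below *Klrc1*, *Klrd1* and *Klrk1* in every library.

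Some markers of other cells rose with *Klrd1* in CTL, while others fell or were not called. The 3 measured NK cell markers of 7 summed to 36.9 to 60.2 FPKM with IL-2 and to 11.6 to 16.1 FPKM without it. Of these, *Fcer1g* fell from a mean of 47.0 to 9.48 FPKM, opposite to *Klrd1*, while *Klrb1c* (1.65 and 2.74 FPKM with and without IL-2) and *Tyrobp* (1.37 and 2.03 FPKM) had higher means without IL-2 and were not called. The dendritic cell marker *Itgax* rose from 0.21 to 0.39 FPKM to 3.67 to 5.17 FPKM, the B cell gene *Cd79b* from 2.74 to 6.3 FPKM to 10.8 to 20.6 FPKM, and *Cd4* from 0.05 to 0.39 FPKM to 0.92 to 1.92 FPKM. Of the myeloid markers, 2 of 5 were measured, with sums of 5.36 to 9.34 FPKM with IL-2 and 9.99 to 16.9 FPKM without it: *Itgam* rose from a mean of 0.293 to 4.09 FPKM, and *Cd68*, at 7.69 and 8.78 FPKM, overlapped and was not called. In the first table, the 4 measured B cell markers of 5 summed to 20.9 to 26.3 FPKM in naïve cells, 4.63 to 7.12 FPKM in TCR cells and 3.3 to 4.58 FPKM in TCR + PI3Kdi cells. The part of these markers in the *Klrd1* results was not tested. In bulk samples, fewer cells with a transcript and less of it per cell cannot be told apart.

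The mRNA level of *Klrc1* relative to *Klrd1*, which encode NKG2A and CD94, differed between the groups, given here as a description. These are ratios of mRNA and not of the heterodimer's proteins. The *Klrc1* level is also uncertain where reads could be shared with *Klrc2* or *Klrc3*. The *Klrc1* level was 0.945, 1.055 and 0.429 of the *Klrd1* level in the TCR libraries. With PI3Kdi it was 0.0702, 0.115 and 0.0631, below every TCR library. In CTL IL-2 it was 0.187, 0.2455 and 0.191, and in CTL no IL-2 it was 0.0242, 0.0341 and 0.0247. *Klrc1* was thus close to *Klrd1* in 2 of 3 TCR libraries and 29.4 to 41.3-fold below it in CTL no IL-2.

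By group mean, the order of *Klrd1* levels was CTL no IL-2, naïve, CTL IL-2, TCR and TCR + PI3Kdi. The difference between the last of these and TCR did not pass the test, and the order across the tables was not tested. *Klrk1* ran from CTL no IL-2 (40.2 ± 4.65 FPKM) and CTL IL-2 (37.7 ± 5.89 FPKM), which overlapped, through TCR and TCR + PI3Kdi (9.41 ± 3.51 FPKM), which also overlapped, to naïve cells. *Klrc1* ran from CTL no IL-2 (6.68 ± 1.20 FPKM) and CTL IL-2 (5.38 ± 0.900 FPKM), which overlapped, through TCR and then TCR + PI3Kdi to naïve cells (SD, n = 3 for each).

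*Hcst*, which encodes the NKG2D adaptor DAP10, went the opposite way to *Klrk1* on activation. It was at 185.62, 221.76 and 167.35 FPKM in naïve cells. After activation it was at 8.41, 9.31 and 10.83 FPKM, and with PI3Kdi at 24.18, 22.69 and 20.08 FPKM. None of these 3 groups overlapped. Of all mRNA, 80.7% had groups that did not overlap on activation, and 36.7% with PI3Kdi against TCR cells. *Hcst* fell by 4.31 on the log2 scale on activation (SE 0.13, limma adjusted p = 1.51e-10) and was 1.22 higher with PI3Kdi than in TCR cells (SE 0.13, limma adjusted p = 0.000109). In CTL it was at 43.03, 35.35 and 36.57 FPKM with IL-2 and at 124.43, 123.46 and 146.86 FPKM without it, a log2 fold change of 1.78 (SE 0.10, limma adjusted p = 7.27e-07). The other adaptor, *Tyrobp* (DAP12), was measured in CTL and was low, with means of 1.37 FPKM and 2.03 FPKM with and without IL-2 that did not differ past the test (limma adjusted p = 0.249).

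The level of *Klrk1* relative to *Hcst* shifted accordingly, given as a description. *Klrk1* was 372 to 1160-fold below *Hcst* in naïve libraries. In TCR cells it was above *Hcst*, at 1.20, 1.40 and 1.375 times its level, and with PI3Kdi it was at 0.293, 0.339 and 0.670 times. CTL IL-2 had ratios of 1.02, 0.91 and 1.015, and CTL no IL-2 had ratios of 0.298, 0.308 and 0.310.

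Of the 12 ligand genes listed for these receptors, 2 had a row in the first table and 3 in the CTL table. *H2-T23*, which encodes Qa-1, the ligand of CD94 and NKG2A, averaged 298 ± 25.3 FPKM in naïve, 159 ± 13.5 FPKM in TCR and 150 ± 5.74 FPKM in TCR + PI3Kdi cells (SD, n = 3). Its fall on activation was -0.91 on the log2 scale, under the 2-fold limit (limma adjusted p = 2.43e-06), and PI3Kdi changed it by -0.08 (limma adjusted p = 0.617). In CTL it went from 134 ± 7.86 FPKM with IL-2 to 258 ± 9.11 FPKM without it, 0.94 on the log2 scale (limma adjusted p = 4.32e-06), also under 2-fold. *H2-T23* and *Klrd1* thus both had lower levels in TCR cells than in naïve cells and higher levels in CTL without IL-2.

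*Ulbp1*, which encodes the NKG2D ligand MULT1, had means of 1.95, 2.86 and 1.78 FPKM in naïve, TCR and TCR + PI3Kdi cells and was not called in these groups. In CTL it was at 28.0 ± 3.43 FPKM with IL-2 and 15.1 ± 2.14 FPKM without it (SD, n = 3), a log2 fold change of -0.88 that stayed under the 2-fold limit (limma adjusted p = 0.000177). *Cdh1*, which encodes the KLRG1 ligand E-cadherin, was at 3.49, 4.13 and 5.73 FPKM with IL-2 and 1.24, 1.41 and 3.58 FPKM without it. The highest library without IL-2 overlapped the lowest with it, and the fall of 1.19 on the log2 scale (limma adjusted p = 0.0127) came under the 2-fold limit when CTL IL-2 replicate 3 (-0.997) or CTL no IL-2 replicate 1 (-0.92) was left out.

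**Figure D3:**
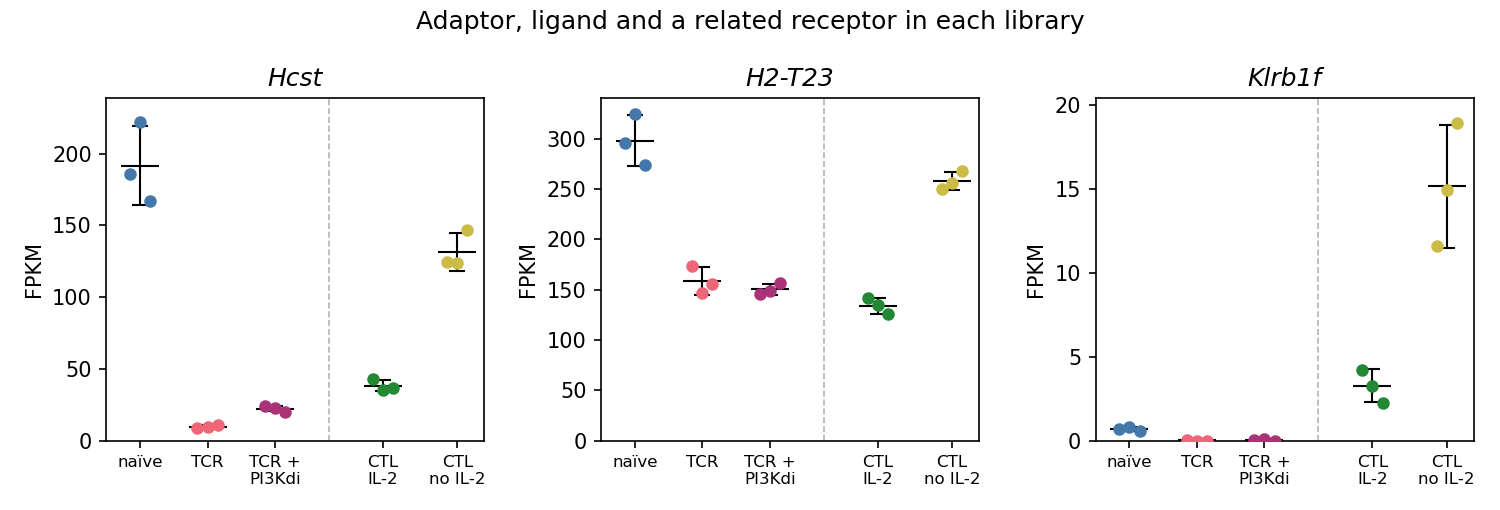
FPKM of the NKG2D adaptor gene *Hcst*, the CD94 and NKG2A ligand gene *H2-T23* and the lectin-like receptor gene *Klrb1f* in every library (points), with group mean and SD (black bars, n = 3) on linear axes from 0. In each panel, CTL no IL-2 was above CTL IL-2, and naïve cells were above both activated groups.

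Among 26 other genes of the NK gene complex and lectin-like receptor families, 4 had a row in the first table, of which 3 fell on activation and none was called with PI3Kdi. Their median log2 fold change on activation was -2.28, beside 0.01 over all mRNA, of which 48.7% were called. *Clec2i*, which encodes a lectin-like ligand of the NKR-P1 family, went from 60.2 to 3.43 FPKM (log2 fold change -4.18, limma adjusted p = 2.09e-07), and the related *Clec2d* from 132 to 39.2 FPKM (-1.75, limma adjusted p = 4.76e-09). *Klrb1f*, an NKR-P1 family receptor gene, was at 0.57 to 0.83 FPKM before activation and at 0 (blanks) to 0.04 FPKM after it. The activation marker *Cd69* had means of 51.8 and 46.6 FPKM and did not pass the test at 24 h (limma adjusted p = 0.438).

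In CTL, 7 of the 26 were measured. Without IL-2, 4 rose and 2 fell, with a median log2 fold change of 1.16 beside 0.00 over all mRNA, of which 28.2% were called. *Klrb1f* rose from 3.25 ± 0.985 FPKM to 15.15 ± 3.66 FPKM (SD, n = 3; log2 fold change 2.20, limma adjusted p = 2.53e-05). *Clec2d* (1.44), *Clec2i* (1.20) and *Clec12a* (1.16, and 0.89 without CTL no IL-2 replicate 1) also rose on the log2 scale. *Klra5*, of the Ly49 family, fell from 3.03 to 0.167 FPKM (-3.73, limma adjusted p = 6.82e-05). That value is uncertain, because reads shared with other genes of this family were not examined. *Cd69* fell by 2.14 (limma adjusted p = 1.1e-07), and *Klrb1c*, which encodes NK1.1, was 0.70 higher but under 2-fold (limma adjusted p = 0.0178).

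*Klrd1* and the genes nearest to it did not move together. Within 500 kb of *Klrd1*, 9 genes had a row in at least 1 of the tables. On activation *Klrd1* fell while *Gabarapl1*, the nearest measured gene on its other side, rose by 3.21 on the log2 scale, and *Klrk1* and *Klrc1* rose on the opposite flank. With PI3Kdi, *Klrc1* was the only 1 of these genes called. On IL-2 withdrawal *Klrd1* rose while *Klrk1*, *Klrc1* and *Gabarapl1*, its nearest measured neighbours, were not called. Further off, *Clec2d* and *2310001H17Rik* were called in the same direction as *Klrd1* in both comparisons (-1.75 and -2.02 on activation, 1.44 and 1.56 on IL-2 withdrawal, on the log2 scale). *Cd69* was not called on activation. On IL-2 withdrawal *Cd69* (-2.14) and *Klra5* (-3.73) fell, opposite to *Klrd1*, and *Clec12a* (1.16) rose.

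**Figure D4:**
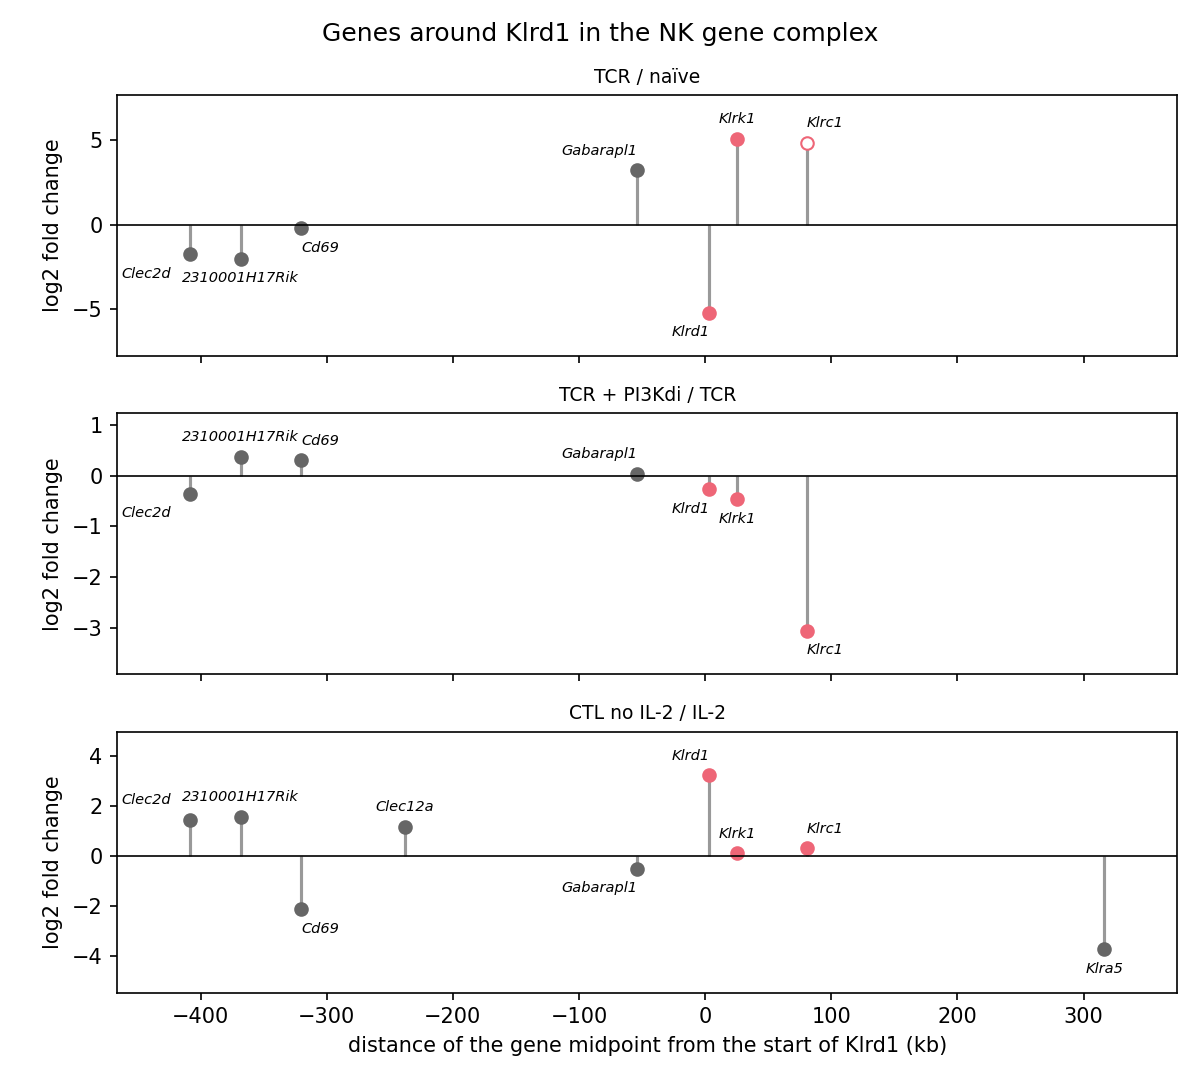
Log2 fold change (limma, y axis) of every measured gene within 500 kb of *Klrd1* against the distance of its midpoint from the *Klrd1* start in kb (x axis), for 3 comparisons. Receptor genes of the set are red and others grey, and the open circle marks *Klrc1* against naïve cells, where blanks are read as 0. *Klrd1* had the lowest point on activation (-5.18) and the highest on IL-2 withdrawal (3.22), and *Clec2d* and *2310001H17Rik* moved the same way as *Klrd1* in both, by less. *Cd69* and *Klra5* went the opposite way on IL-2 withdrawal.

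The signalling proteins that these receptors share with the TCR were followed as a list of 12 mRNA, all measured. On activation their median log2 fold change was -1.02. Over all 11262 mRNA, 48.7% were called in this comparison and 2672 were called lower. Of the 12, 6 were called lower, 6 were not called and none was called higher. Those called lower included *Pik3r1*, the p85 subunit of PI3K that binds DAP10 (-2.14), and *Inpp5d*, which encodes the phosphatase SHIP1 (-1.80). The kinase gene *Lck* (-1.42) and *Ptpn6*, which encodes SHP-1, a phosphatase used by NKG2A (-1.33), were also called lower. Under the 2-fold limit, *Ptpn11* was 0.54 higher on the log2 scale (limma adjusted p = 0.000447). *Fyn* (-0.69), *Grb2* (-0.82), *Vav1* (-0.96) and *Zap70* (-0.86) were lower, also under that limit. None of the 12 was called with PI3Kdi or on IL-2 withdrawal, where the medians were 0.18 and 0.13. Over all mRNA, 5.14% and 28.2% were called in these comparisons.

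The next list held 19 transcription factors and cytokine receptors known to act on these receptor genes or on effector differentiation. With PI3Kdi, 1 was called higher and 4 were called lower. In that comparison *Klrc1* fell and 5.14% of all mRNA were called. *Zeb2* went from 1.63 to 0.16 FPKM (log2 fold change -2.73, limma adjusted p = 2.29e-05), *Eomes* from 17.04 to 5.99 FPKM (-1.50, limma adjusted p = 0.00311) and *Stat5a* from 109 to 41.5 FPKM (-1.41, limma adjusted p = 9.19e-05). *Il15ra* fell by 1.00, and that call was lost without TCR replicate 1 (-0.77), TCR replicate 2 (-0.97) or PI3Kdi replicate 3 (-0.93). *Id2* rose from 14.5 to 43.6 FPKM (1.61, limma adjusted p = 0.000387). On activation, when *Klrk1* and *Klrc1* rose and *Klrd1* fell, 8 of the 19 were called higher and 5 lower, beside 48.7% of all mRNA. Among those called were *Il2ra* (9.49), *Tbx21* (5.97), *Il12rb2* (4.99) and *Gata3* (-4.99) on the log2 scale. On IL-2 withdrawal, when *Klrd1* rose, 4 were called higher and 4 lower, led by *Tcf7* (5.32), *Bach2* (3.29), *Eomes* (-3.02) and *Il2ra* (-2.37). Of all mRNA, 28.2% were called on IL-2 withdrawal.

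*Klrc1* fell with PI3Kdi beside some effector genes. Of 10 measured effector and memory mRNA of a list of 13, 4 fell, 1 rose and 5 were not called with PI3Kdi. Of all mRNA, 5.14% were called in this comparison. Granzyme B mRNA (*Gzmb*) fell by 3.08 on the log2 scale, *Fasl* by 2.82 and *Cd44* by 2.11, while *Il7r* (1.74), which is high in naïve and memory cells, rose. *Klrd1* rose on IL-2 withdrawal beside 4 of 12 measured genes of this list, among them the chemokine gene *Ccl5* (4.36), *Cd27* (3.78) and *Il7r* (3.23). Another 4 fell, among them *Gzmb* (-4.63) and *Prf1* (-4.51), and 4 were not called. Of all mRNA, 28.2% were called on IL-2 withdrawal. These lists were described by their counts, and nothing about the receptors was tested with them.

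The mRNA most alike each receptor were found by Pearson's r of log2(FPKM + 0.1) over the 9 naïve and activated libraries, among 10072 mRNA with a mean of at least 1 FPKM. These libraries fall into 3 groups, so r follows mainly the group means and is a description. For *Klrd1* they were *Sgk1* (r = 0.999), *Chmp1b* and *Pag1* (0.998 each), and *Sgk1* went from 27.8 to 0.587 FPKM on activation and was at 0.540 FPKM with PI3Kdi. For *Klrk1* they were *Eif2a* (0.998), *Npepl1* (0.998) and *Polr2e* (0.997). For *Klrc1* they were *Lepre1* (0.991), *Slc35c2* (0.989) and *Tubb6* (0.984). *Tubb6* was blank in naïve cells and read as 0, and was at 10.6 FPKM in TCR cells and 0.793 FPKM with PI3Kdi. *Klrd1* and *Klrk1* had an r of -0.979.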

How the data were processed

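Poly(A) RNA of P14 CD8+ T cells was sequenced in 15 libraries, and the authors deposited FPKM in 2 tables. Per their methods, the authors aligned reads to mm10 with STAR 2.5.2b, counted them with Subread 1.5.1, removed lowly expressed genes, applied TMM in edgeR and scaled by exon length. The same steps were assumed for the CTL table. Values have 2 decimals and blank cells were read as 0. Reads per library are not given, so the depth behind a value is unknown. Samples were grouped by title, because the treatment labels of 2 CTL IL-2 libraries name other interleukins.

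Values of log2(FPKM + 0.1) were fitted with limma 3.58.1 in R 4.3.3 with an intensity trend, the 9 naïve and activated libraries in one fit and the 6 CTL libraries in another. Benjamini-Hochberg adjustment ran over all mRNA of a table. Calls needed an adjusted p under 0.05 and a fold above 2 or below 0.5, on the log2(FPKM + 0.1) scale, which understates changes of low mRNA. The fit was tested on simulated data. P-values are for differences between group means and rest on the spread between these replicates, moderated over all mRNA of a table. The main fit held no replicate block. Python 3.11.15, pandas 2.3.3 and matplotlib 3.10.9 were used.

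The members and gene lists were chosen with earlier results of these data known. Named were the members, measured genes of the adaptor, ligand and other lectin-like receptor lists, up to 5 called genes with the largest change per comparison in each other list, and the 3 mRNA most alike each member. *Gabarapl1*, *2310001H17Rik*, the uncalled signalling mRNA and the markers of other cells fall outside this rule. The promoter motifs were picked after the data were seen. A gene of the effector list is not reported here and was left out of its counts. Of the 4 members, 2 matched the RefSeq promoter table.

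Same-numbered libraries were taken to share a pool of mice. Deviations from the group means correlated at r = 0.275, 0.203 and 0.506 for TCR and TCR + PI3Kdi and at 0.123, 0.166 and 0.257 for the CTL groups, over 10072 and 10263 mRNA. For naïve and TCR cells r was -0.141, 0.226 and -0.181.

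Alternatives were other pseudocounts, a minimum mean of 1 FPKM, median scaling, no intensity trend, a replicate block, only the groups compared, other fold limits and leaving out each library. For genes other than the members they were added after seeing the data.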

Additional observations from a re-analysis of the deposited data

How the results depend on the processing

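Calls of the receptors were stable with 1 exception. Against naïve cells, *Klrc1* with PI3Kdi was at 0.31 on the log2 scale with a pseudocount of 1 FPKM and was no longer called (adjusted p = 0.19), where the larger pseudocount by construction shrinks values this low. Among uncalled changes on IL-2 withdrawal, the sign turned when a library was left out, over a range of -0.0774 to 0.18 for *Klrg1* and of -0.0111 to 0.21 for *Klrk1*, and *Klrg1* was -0.03 without CTL IL-2 replicate 2. *Klrc1* in CTL came to an adjusted p of 0.0457 without CTL IL-2 replicate 1 and 0.0345 without CTL no IL-2 replicate 1, still under 2-fold. *Klrc1* with PI3Kdi was at -1.61 with a pseudocount of 1 and -3.46 with 0.01, called in each. With the replicate block *Klrc1* with PI3Kdi was at -3.06 (adjusted p = 0.000248), and the block changed no call of a receptor. *Cd69* on activation, uncalled, ran from -0.57 to 0.00935 when a library was left out. With a pseudocount of 1, *Klrb1f* on activation (-0.74), *Fasl* (-0.92) and *Il15ra* (-0.91) with PI3Kdi, and *Cdh1* (-0.88) and *Clec12a* (0.74) on IL-2 withdrawal came under the 2-fold limit.

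The background counts moved with the fold limit. For PI3Kdi, 579 mRNA were called, against 1120 at 1.5-fold, 1975 with no limit and 311 with a pseudocount of 1. For IL-2 withdrawal, 3166 became 5657 at 1.5-fold and 8056 with no limit. With no limit, TCR against naïve went from 5490 to 9096 and PI3Kdi against naïve from 5063 to 8906. Median scaling moved the median of all mRNA in TCR against naïve from 0.01 to 0.13 on the log2 scale, which is small beside the changes of the receptors. Depth is unknown, so no limit of detection is given for *Klrc1* in naïve cells.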
